A study of Mus musculus with 12 samples.

Results

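The breakdown of the branched-chain amino acids leucine, isoleucine and valine was followed through 9 genes chosen by symbol for their steps in it: Bcat1, Bcat2, Bckdha, Bckdhb, Dbt, Bckdk, Ivd, Mccc1 and Mccc2. They are 9 of the 24197 genes in the count table, and 9 of 9 passed the filter on low counts that left 15265 genes tested. The study sequenced RNA of brown adipose tissue (BAT), a fat that burns fuel to make heat, taken at 8 to 10 weeks of age from mice, in 12 libraries that form 4 groups of 3. Mutant mice carried Adipoq-Cre, a recombinase driven by an adipocyte promoter, with 2 floxed Ebf2 alleles, and were kept either for 1 week at 4 °C (mutant cold) or at room temperature (mutant RT). Control mice carried the same 2 floxed alleles without Cre, and were likewise kept in the cold (control cold) or at room temperature (control RT). The product of Ebf2 is a transcription factor with a known role in the identity of brown fat cells. The labels do not say that replicates were separate animals, so p-values speak only of how far these libraries scatter, and that scatter may be technical.

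Branched-chain amino acids are first stripped of their amino group by a transaminase, Bcat1 in the cytosol or Bcat2 in mitochondria. The resulting keto acids are committed to oxidation by the mitochondrial branched-chain keto acid dehydrogenase complex, whose decarboxylase subunits are Bckdha and Bckdhb and whose transacylase core is Dbt. The kinase Bckdk phosphorylates Bckdha and switches the complex off, and in the leucine branch Ivd and the carboxylase made of Mccc1 and Mccc2 act next. In mice, brown fat is known to burn these amino acids as fuel when it makes heat.

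Library totals ran from 25835650 to 37927038 counts. Ebf2, the targeted gene, had 28.7, 21.6 and 27.0 CPM (counts scaled to a common library total) in mutant cold libraries, against 52.3, 42.2 and 41.6 CPM in control cold libraries. At room temperature it had 65.2, 45.7 and 38.3 CPM in mutant libraries, against 47.4, 64.1 and 32.0 CPM in control libraries. It was called lower at neither temperature (adjusted p = 0.153 in the cold and 0.931 at room temperature, edgeR), so "mutant" below stands for the libraries labelled mutant. The brown fat uncoupling protein Ucp1 was present in every library, between 718 and 12212 CPM. Mutant cold replicate 3 stood apart: the summed level of 5 epithelial markers was 234 CPM there and 2.31 to 21.6 CPM in the other 11 libraries, and the sum of 10 brown adipocyte markers was 11570 CPM against 20440 and 21560 CPM in mutant cold replicates 1 and 2. Its 6 fibroblast and preadipocyte markers summed to 1730 CPM, against 535 and 413 CPM in those replicates (514 to 1594 CPM in the other groups). Its 4 Schwann cell markers summed to 146 CPM, against 48.2 and 49.6 CPM (54.7 to 338 CPM in the other groups). The mutant RT group stood apart as a whole in lens transcripts: 7 lens markers summed to 0.793 to 1.32 CPM in its 3 libraries, with 2 of the 7 at 0 in each, and to 75.8 to 490 CPM in the other 9. Of these markers 6 of 7 were called lower in mutants at room temperature, and 5 of 7 were called higher in mutants' cold comparison and in the interaction (edgeR). This split coincides with the group, and its part in the comparisons that use mutant RT libraries was not tested. Summed levels of 17 skeletal muscle genes were 238, 453 and 6381 CPM in mutant cold, 2653, 247 and 10635 CPM in control cold, 1311, 94.5 and 21558 CPM in mutant RT, and 27263, 104 and 19008 CPM in control RT. Of those muscle genes, 0 to 6 were at 0 in a given library, and the 4 muscle-rich libraries left out below are control RT replicates 1 and 3, mutant RT replicate 3 and control cold replicate 3. In bulk tissue, fewer cells of a type and less RNA per cell cannot be told apart.

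Compared per kilobase of transcript over all 12 libraries, Bckdha had the highest mean level at 272 CPM per kb, followed by Bckdhb at 127 CPM per kb. Bcat2 (92.7 CPM per kb), Mccc1 (91.1), Ivd (78.6), Dbt (69.9) and Mccc2 (63.7) formed a middle band, and Bckdk stood at 38.0 CPM per kb. Bcat1 was far lower at 1.07 CPM per kb, with 17 to 205 counts in a library. In control RT libraries Bckdha stood at 230 ± 49.3 CPM per kb (SD, n = 3) and Bckdhb at 89.4 ± 4.09 CPM per kb. The next levels there, 73.6 ± 18.0 for Bcat2, 72.0 ± 0.967 for Mccc1 and 66.0 ± 9.24 CPM per kb for Ivd, differed by less than their spread. Mccc2 (54.0 ± 7.02) and Dbt (50.8 ± 6.79 CPM per kb) were likewise not separable, and Bckdk was at 40.8 ± 2.14 and Bcat1 at 0.925 ± 0.357 CPM per kb. Dbt stood higher in this order in the cold: it was at 101 ± 14.5 CPM per kb in mutant cold and 87.1 ± 3.89 CPM per kb in control cold, against 40.9 ± 3.31 CPM per kb in mutant RT and the level given above for control RT.

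**Figure D1:**
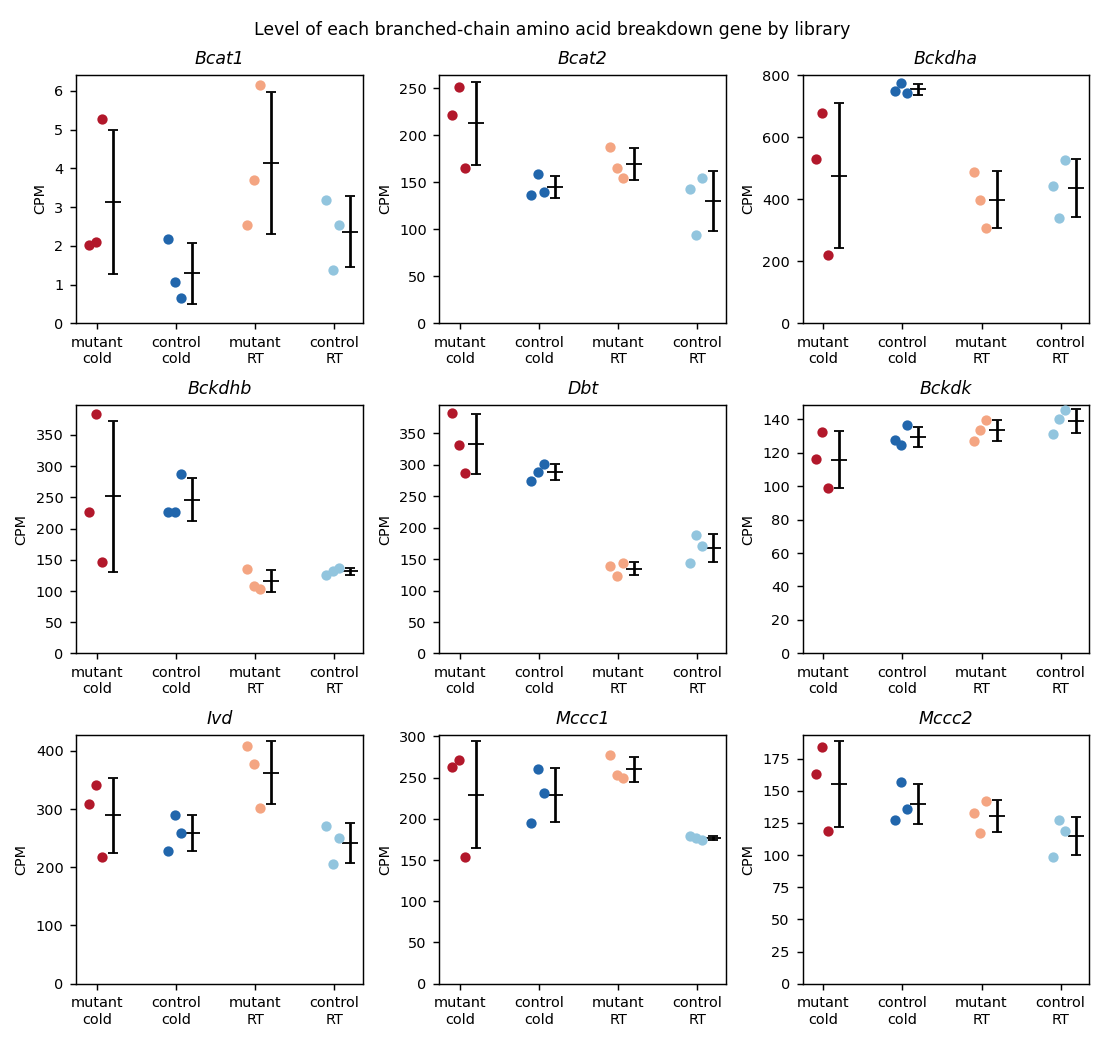
Level of each of the 9 genes in CPM (scaled counts, y axis from 0) in mutant cold, control cold, mutant RT and control RT libraries, 1 point per library with the mean and SD of 3 beside them. Dbt was between 275 and 382 CPM in the 6 cold libraries and between 122 and 189 CPM in the 6 room temperature libraries, while Bckdk stayed between 98.6 and 146 CPM throughout.

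The cold comparison asked which genes change when BAT is driven to make heat, in mutants and in controls. Dbt, the transacylase core of the dehydrogenase complex, rose in the cold in both genotypes. Bckdhb, a decarboxylase subunit, was called higher in mutants only, while its log2 fold change in controls had the same direction (0.91 ± 0.27, edgeR adjusted p = 0.0698). In mutants 2 of 9 members were called, against 17.4% of all genes tested. In controls 1 of 9 was called, against 6.62% of all genes. With 9 members these counts are near the background of each comparison. Without mutant cold replicate 3 the same 2 members were called in mutants, where 23.4% of all genes were called. The members' median log2 fold change was 0.25 in mutants and 0.29 in controls, beside -0.01 over all genes in each.

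Dbt had 382, 331 and 287 CPM in mutant cold libraries, against 139, 122 and 143 CPM in mutant RT libraries. In controls it had 275, 288 and 300 CPM in the cold, against 144, 189 and 171 CPM at room temperature. The cold libraries were all above the room temperature libraries in both genotypes, and the lowest of the 6 cold values was well above the highest of the others. The log2 fold change of cold over room temperature was 1.30 ± 0.15 in mutants (SE, 95% interval 0.98 to 1.63, adjusted p = 0.000223, edgeR's quasi-likelihood test with Benjamini-Hochberg adjustment). In controls it was 0.78 ± 0.15 (interval 0.46 to 1.10, edgeR adjusted p = 0.0104). The mutant call held when each of the 6 libraries was left out (edgeR adjusted p 0.000101 to 0.00270), and without the 4 muscle-rich libraries (1.35, adjusted p = 0.00710). The control call was lost without control cold replicate 2 (edgeR adjusted p = 0.0562), without control cold replicate 3 (0.0610), and without the 4 muscle-rich libraries (log2 fold change 0.58, adjusted p = 0.281).

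Whether the cold response of Dbt differed by genotype was tested by the interaction, which was 0.53 ± 0.20 on the log2 scale (interval 0.08 to 0.97). It did not pass over all genes (edgeR unadjusted p = 0.0245, adjusted p = 0.322). Of all genes 0.478% passed that test, and of the 9 members 0 did. With limma-voom and sample quality weights the Dbt interaction was 0.66 with an adjusted p of 0.0223, where that tool called 7.92% of all genes.

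Bckdhb, which forms the decarboxylase together with Bckdha, had 226, 384 and 146 CPM in mutant cold libraries, against 136, 108 and 103 CPM in mutant RT libraries. In control libraries it had 227, 226 and 287 CPM in the cold, against 125, 133 and 137 CPM at room temperature. Cold and room temperature libraries did not overlap in either genotype, but mutant cold replicate 3 lay close to mutant RT replicate 1. The log2 fold change was 1.13 ± 0.27 in mutants (interval 0.53 to 1.72, edgeR adjusted p = 0.0153), and 0.91 ± 0.27 in controls (interval 0.31 to 1.5, edgeR adjusted p = 0.0698). The interaction was 0.22 ± 0.38 and did not pass (edgeR adjusted p = 0.886). In controls the rise was called in 3 of 13 alternative fits. Among them were DESeq2 (adjusted p = 0.0174) and limma-voom (adjusted p = 0.00682), which called 13.3% and 22.5% of all genes there. In mutants the call was lost without mutant RT replicate 2 or 3 (edgeR adjusted p = 0.0668 each) or mutant cold replicate 2 (log2 fold change 0.68, adjusted p = 0.0569), and in a fit of only those 2 groups (adjusted p = 0.0772). Without mutant cold replicate 3, the library set apart above by several marker lists, it was 1.40 with an edgeR adjusted p of 0.000728. It was also lost without the muscle-rich libraries (edgeR adjusted p = 0.142).

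Bckdha, the decarboxylase subunit that Bckdk phosphorylates, had 528, 678 and 220 CPM in mutant cold libraries, against 489, 399 and 306 CPM in mutant RT libraries. In controls it had 748, 774 and 741 CPM in the cold, against 443, 339 and 526 CPM at room temperature. The control groups did not overlap and the mutant groups did, with mutant cold replicate 3 the lowest of all 12 libraries. The log2 fold change in the cold was 0.26 ± 0.33 in mutants (interval -0.46 to 0.98, edgeR adjusted p = 0.648) and 0.79 ± 0.33 in controls (interval 0.07 to 1.51, edgeR adjusted p = 0.174), and neither was called. In controls the rise was called in 2 of 13 alternative fits. Limma-voom was among them (0.64, adjusted p = 0.0356), where it called 22.5% of all genes. Without mutant cold replicate 3 the mutant value was 0.60 (edgeR adjusted p = 0.0657). The difference between the genotypes' responses was -0.53 ± 0.47 and did not pass (edgeR adjusted p = 0.717).

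In the same libraries the sum of the 10 brown adipocyte markers was 11570 to 21560 CPM in mutant cold against 4562 to 6766 CPM in mutant RT, and 19821 to 21860 CPM in control cold against 7476 to 12641 CPM in control RT. Of these markers 5 of 10 were called higher in the cold in mutants (17.4% of all genes were called) and 3 of 10 in controls (6.62% of all genes). None was called lower, and none was at 0 in any library. The log2 fold change was below 0 for 3 of 10 in mutants and 4 of 10 in controls, where the lowest was -1.63. Much of the sum was Ucp1, which averaged 9505 CPM in mutant cold and 11935 CPM in control cold. The 8 general adipocyte markers moved the other way in mutants, with 5 of 8 called lower in the cold, 0 higher and a median log2 fold change of -0.72. Their sum was 11392 to 17159 CPM in mutant cold against 17094 to 22226 CPM in mutant RT. In controls 1 of 8 was called lower and 0 higher (median 0.08), with sums of 13617 to 15284 CPM in the cold against 10478 to 14806 CPM at room temperature. The part of both marker lists in the levels of Dbt, Bckdhb and Bckdha was not tested.

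The other 6 members were called by edgeR in neither cold comparison. Limma-voom, which called 33.5% of all genes in mutants and 22.5% in controls, called Bcat2 (adjusted p = 0.0285) and Mccc2 (0.0290) in mutants and Mccc1 (0.0288) in controls. Bckdk, the inhibitory kinase, varied least of the 9, with a 1.48-fold range over the 12 libraries and log2 fold changes in the cold of -0.20 ± 0.12 in mutants and -0.10 ± 0.12 in controls. Mccc1, the biotin-carrying subunit of methylcrotonyl-CoA carboxylase, had non-overlapping control groups, with 195, 261 and 231 CPM in the cold and 179, 177 and 174 CPM at room temperature. Its log2 fold change there was 0.37 ± 0.19 (edgeR adjusted p = 0.272), and in mutants it was -0.18 ± 0.19 (adjusted p = 0.577). Ivd, the dehydrogenase of the leucine branch, had log2 fold changes of -0.32 ± 0.19 in mutants and 0.10 ± 0.19 in controls. Those of Mccc2, the other carboxylase subunit, were 0.25 ± 0.17 and 0.29 ± 0.17, and those of Bcat2 were 0.33 ± 0.20 and 0.15 ± 0.20. Bcat1 was not called at -0.39 ± 0.52 in mutants and -0.87 ± 0.54 in controls, and leaving out 1 library moved these values to between -1.0 (without mutant cold replicate 3) and -0.0084 (without mutant RT replicate 3) in mutants, and to between -1.47 (without control cold replicate 1) and -0.57 (without control cold replicate 3) in controls. Between cold and room temperature, 2 of 9 members did not overlap in mutants (32.6% of all genes) and 4 of 9 in controls (33.3% of all genes).

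**Figure D2:**
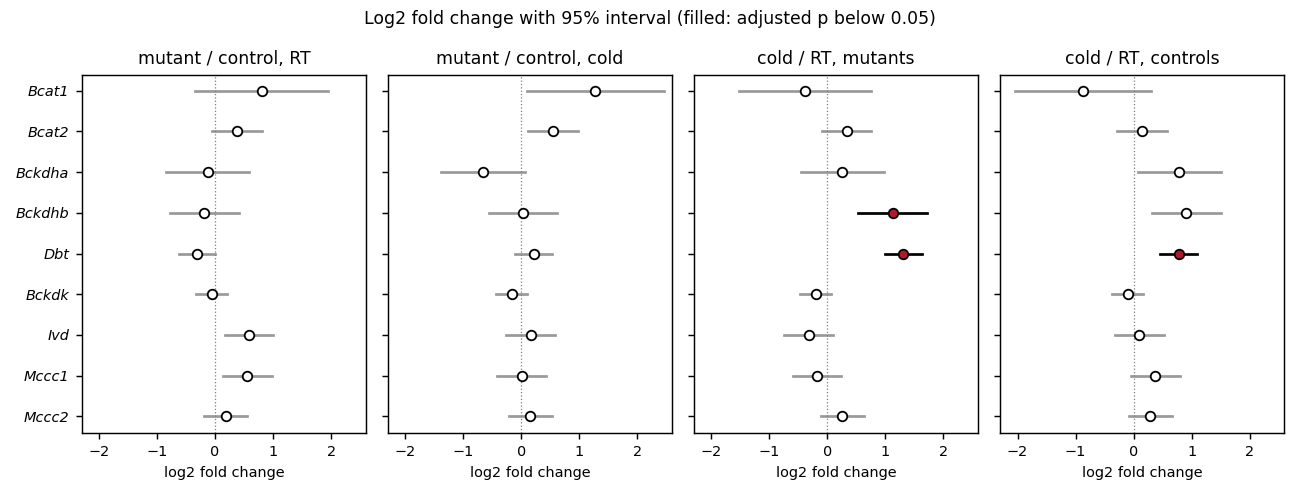
Log2 fold change (x axis) of each of the 9 genes in 4 comparisons, with the 95% interval from the edgeR fit as a bar, and filled points for adjusted p below 0.05. Filled points are Dbt and Bckdhb in mutants and Dbt in controls between cold and room temperature, and no point is filled between genotypes.

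Because Bckdha, Bckdhb and Dbt work in 1 complex, their counts were set against each other within each library, which does not depend on the scaling between libraries. All ratios over Bckdha share its counts as denominator, so they are not independent of each other. Bckdhb counts per Bckdha count were 0.428, 0.566 and 0.664 in mutant cold, 0.303, 0.292 and 0.387 in control cold, 0.278, 0.271 and 0.335 in mutant RT, and 0.282, 0.392 and 0.261 in control RT. The 3 mutant cold libraries lay above the other 9. Between genotypes in the cold, Bckdhb itself differed by 0.03 ± 0.27 on the log2 scale and Bckdha by -0.67 ± 0.33 (neither called, edgeR). Dbt counts per Bckdha count were 0.724, 0.488 and 1.30 in mutant cold, 0.367, 0.372 and 0.405 in control cold, 0.285, 0.307 and 0.467 in mutant RT, and 0.325, 0.557 and 0.325 in control RT. Here mutant cold did not overlap with control cold or mutant RT, while control RT replicate 2 lay within its range. For each of these ratios the comparison of mutant cold with control cold, and with mutant RT, gave a two-sided exact permutation p of 0.1, the smallest that 3 against 3 allows, and 0.2 after adjustment over the 20 ratio tests. In controls the ratios in the cold and at room temperature overlapped (exact permutation p = 0.6 for Bckdhb and 1 for Dbt).

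Bckdk counts per Bckdha count were 0.22, 0.195 and 0.448 in mutant cold, against 0.260, 0.334 and 0.456 in mutant RT. In controls they were 0.171, 0.161 and 0.184 in the cold, against 0.296, 0.413 and 0.277 at room temperature. The control cold values were below those of all other libraries, while mutant cold replicate 3 was among the highest. Control cold did not overlap with control RT, nor mutant cold with control cold (exact permutation p = 0.1 each, adjusted 0.2), and mutant cold and mutant RT overlapped (exact permutation p = 0.5). The part that the cell makeup of mutant cold replicate 3 plays in these ratios was not tested.

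**Figure D3:**
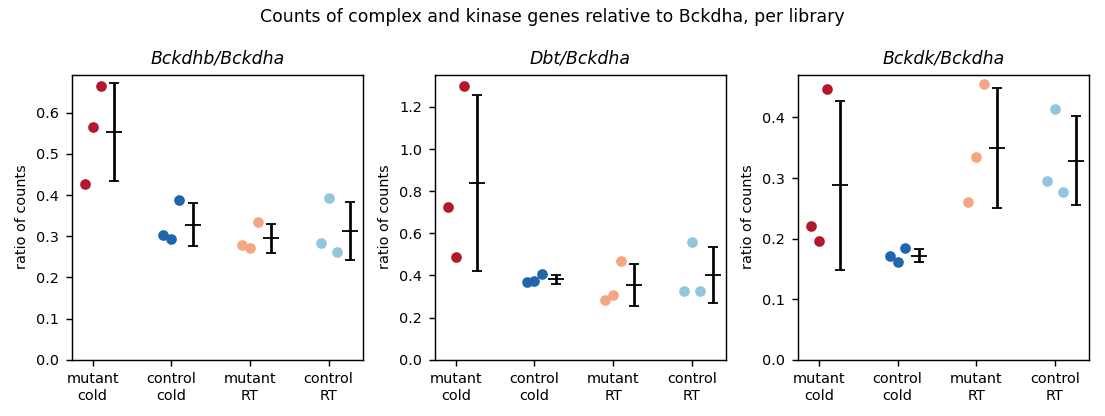
Counts of Bckdhb, Dbt and Bckdk divided by the counts of Bckdha in the same library (y axis, ratio from 0), 1 point per library in mutant cold, control cold, mutant RT and control RT, with mean and SD of 3. All 3 mutant cold libraries have a higher Bckdhb to Bckdha ratio (0.428 to 0.664) than the other 9 (0.261 to 0.392), and the lowest Bckdk to Bckdha ratios are those of control cold (0.161 to 0.184).

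Bckdhb counts per Bckdha count were highest in the mutant cold libraries (exact permutation adjusted p = 0.2 against control cold). The sequences just upstream of the start sites of these decarboxylase partners are shown, and their part in the ratio was not tested. Both are from RefSeq on GRCm38.p6, 5′ to 3′ on the strand of the gene, with CG dinucleotides in capitals. The Bckdhb sequence is chr9:83924887-83925136 on the plus strand (window 1 of the 2 listed for this gene) and the Bckdha sequence is chr7:25658762-25659011 on the minus strand.
Bckdhb: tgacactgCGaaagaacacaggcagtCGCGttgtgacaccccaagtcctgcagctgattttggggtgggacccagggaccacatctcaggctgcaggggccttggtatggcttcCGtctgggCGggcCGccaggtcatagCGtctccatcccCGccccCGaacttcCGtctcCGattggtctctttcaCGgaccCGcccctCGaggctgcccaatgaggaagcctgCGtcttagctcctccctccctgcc
Bckdha: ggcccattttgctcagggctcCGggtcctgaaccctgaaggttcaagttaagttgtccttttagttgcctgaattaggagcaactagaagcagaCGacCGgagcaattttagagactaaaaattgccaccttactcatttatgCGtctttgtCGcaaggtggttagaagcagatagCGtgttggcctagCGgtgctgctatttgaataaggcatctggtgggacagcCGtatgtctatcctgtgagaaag
The Bckdhb stretch was 63.2% G and C with 15 CG dinucleotides, and the Bckdha stretch was 47.6% G and C with 8, while the medians over 32851 upstream stretches were 52.4% and 6. Window 2 of Bckdhb, not printed, was 36.4% G and C with 1 CG dinucleotide, so the order of the 2 genes depends on the window. Windows were listed for 8 of the 9 members (11 windows in all), not for Dbt. The E-box CACGTG, a palindrome that reads alike on both strands, was searched in windows that also take in the 50 bases after each start. It stood in 1 of the 11 windows, that of Mccc2, and in 7.15% of all windows of that length, which describes these letters only.

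The genotype comparison asked how BAT of mutants and controls differs at each temperature. No member was called: 0 of 9 in the cold, against 1.12% of all genes, and 0 of 9 at room temperature, against 6.24% of all genes (edgeR). At an unadjusted p under 0.05 (edgeR) there were 2 of 9 members in the cold (Bcat1 and Bcat2) and 2 of 9 at room temperature (Ivd and Mccc1). All genes gave 2343 (15.3%) and 3067 (20.1%), so these counts are near the background. DESeq2 called 0 members in the cold and 1 at room temperature (Ivd), against 4.65% and 11.3% of the genes with an adjusted p in that tool. Limma-voom called 1 in the cold (Bcat2) and 3 at room temperature (Dbt, Ivd and Mccc1), against 7.7% and 19% of all genes. Groups did not overlap for 2 of 9 members in the cold and 4 of 9 at room temperature, against 24.8% of all genes at each. The members' median log2 fold change was 0.15 in the cold (all genes -0.01) and 0.19 at room temperature (all genes -0.04).

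Bcat2, the mitochondrial transaminase, had 222, 251 and 165 CPM in mutant cold libraries, against 137, 158 and 139 CPM in control cold libraries. At room temperature it had 188, 165 and 155 CPM in mutants, against 143, 94.2 and 154 CPM in controls. Mutant values were above control values at both temperatures without overlap, narrowly so at room temperature. The log2 fold change was 0.55 ± 0.20 in the cold (interval 0.12 to 0.98, edgeR adjusted p = 0.212) and 0.37 ± 0.20 at room temperature (interval -0.06 to 0.80, edgeR adjusted p = 0.329). Bcat2 counts per Bckdha count averaged 0.513 ± 0.205 in mutant cold and 0.192 ± 0.0115 in control cold, and 0.434 ± 0.0630 in mutant RT and 0.298 ± 0.0229 in control RT (SD, n = 3 each). Neither pair overlapped (exact permutation p = 0.1 each, adjusted 0.2).

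Bcat1, the cytosolic transaminase, which is sparse in this tissue, had 2.02, 2.10 and 5.28 CPM in mutant cold libraries, against 2.17, 1.05 and 0.648 CPM in control cold libraries. At room temperature it had 2.55, 3.71 and 6.14 CPM in mutants, against 3.18, 1.38 and 2.53 CPM in controls. The groups overlapped at both temperatures. Mutant over control was 1.28 ± 0.54 on the log2 scale in the cold (edgeR adjusted p = 0.283) and 0.80 ± 0.53 at room temperature (adjusted p = 0.449). Without mutant cold replicate 3, which held the highest cold value, the cold difference was 0.67.

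In the leucine branch, Ivd had 310, 341 and 218 CPM in mutant cold, against 228, 290 and 259 CPM in control cold. At room temperature it had 408, 378 and 302 CPM in mutants, against 271, 205 and 249 CPM in controls. The groups overlapped in the cold and not at room temperature, where all mutants were above all controls. Mutant over control was 0.16 ± 0.19 on the log2 scale in the cold (edgeR adjusted p = 0.727) and 0.58 ± 0.19 at room temperature (interval 0.16 to 1.00, edgeR adjusted p = 0.101).

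Mccc1 also did not overlap at room temperature, with 277, 253 and 249 CPM in mutants, against 179, 177 and 174 CPM in controls. Its cold levels were 263, 271 and 154 CPM in mutants, against 195, 261 and 231 CPM in controls, and these overlapped. Its log2 fold change was 0.00 ± 0.19 in the cold (edgeR adjusted p = 0.994) and 0.56 ± 0.19 at room temperature (interval 0.13 to 0.98, edgeR adjusted p = 0.122). Its partner Mccc2 had 163, 184 and 119 CPM in mutant cold against 127, 157 and 136 CPM in control cold, and 132, 117 and 142 CPM in mutant RT against 98.2, 127 and 119 CPM in control RT, all overlapping. The Mccc1 to Mccc2 ratio of counts averaged 1.46 ± 0.157 in mutant cold and 2.0 ± 0.221 in mutant RT, without overlap (exact permutation p = 0.1, adjusted 0.2). In controls it averaged 1.63 ± 0.0901 in the cold and 1.56 ± 0.231 at room temperature (exact permutation p = 0.6).

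Within the dehydrogenase complex, Bckdha was lower in every mutant cold library than in any control cold library, by a log2 fold change of -0.67 ± 0.33 (interval -1.39 to 0.06, edgeR adjusted p = 0.367). Without mutant cold replicate 3 it was -0.32 (adjusted p = 0.593). Dbt was lower in every mutant RT library than in any control RT library, narrowly so at their nearest (143 against 144 CPM). Its log2 fold change was -0.31 ± 0.15 at room temperature (interval -0.63 to 0.00, edgeR adjusted p = 0.251) and 0.21 ± 0.14 in the cold (adjusted p = 0.512). Bckdhb differed by 0.03 ± 0.27 in the cold (interval -0.56 to 0.62) and by -0.19 ± 0.27 at room temperature (interval -0.78 to 0.40). Bckdk differed by -0.16 ± 0.12 in the cold (interval -0.43 to 0.10) and by -0.06 ± 0.12 at room temperature (interval -0.33 to 0.21). Summed brown adipocyte markers were 20440, 21560 and 11570 CPM in mutant cold against 21860, 19821 and 20265 CPM in control cold, and 6766, 4828 and 4562 CPM in mutant RT against 7476, 12641 and 12214 CPM in control RT, with 0 of 10 passing the test in the cold, while at room temperature 1 passed as higher and 1 as lower in mutants. Of 8 general adipocyte markers 0 were called in the cold and 4 were higher in mutants at room temperature. The part of these markers in the members' differences was not tested.

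Likeness of pattern was measured as the root mean square difference of mean-centred log2 CPM over the 12 libraries. Among the members, Ivd and Mccc1 were closest (0.165), then Mccc1 and Mccc2 (0.214), and Bcat1 and Bckdha were farthest apart (1.16). Of the other genes searched, those nearest to Bckdk were Btf3 (0.0728), Cops8 (0.0746) and Krr1 (0.0832), where Bckdk itself varied by 0.142 around its mean. Nearest to Bcat2 were Pex13 (0.144), Car4 (0.145) and Prkaca (0.164), where Bcat2 varied by 0.342. Nearest to Bcat1 were Col5a2 (0.381), Rora (0.393) and Cpeb4 (0.403), where Bcat1 varied by 0.701.

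Lists of related genes were followed in the same fit. In the cold, the median log2 fold change in mutants was 0.47 in the leucine steps after Mccc, 0.40 in the valine and isoleucine steps, 0.53 in the propionyl-CoA steps, 0.15 in the shared subunit and regulators, 0.17 in the carriers, -0.10 in leucine sensing and 0.56 in the other 2-oxoacid dehydrogenases. In controls these medians were 0.38, 0.35, 0.56, 0.06, 0.09, -0.03 and 0.61 in the same order of lists, beside -0.01 over all genes in each genotype. The counts of called genes in each list below stand against 17.4% of all genes called in the cold in mutants and 6.62% in controls, and between genotypes against 1.12% in the cold and 6.24% at room temperature. In lists of 5 to 12 genes these shares amount to few genes, and nothing particular to a list is read from its count.

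Around the 9 members, the list named shared subunit and regulators held Dld, Ppm1k, Klf15, Btd and Hlcs. Btd and Hlcs are on it for the biotin of the carboxylases, not for the dehydrogenase complex. In the cold 2 of 5 rose and 1 fell in mutants, and 0 of 5 were called in controls. Ppm1k, the phosphatase that undoes the work of Bckdk, had 48.8, 29.7 and 68.7 CPM in mutant cold, against 18.3, 27.8 and 22.8 CPM in mutant RT. These groups did not overlap, narrowly so at their nearest, and its log2 fold change was 1.10 ± 0.30 (edgeR adjusted p = 0.0292), with 4 of 6 leave-one-out fits losing the call, those without mutant RT replicate 1 or 3 or mutant cold replicate 1 or 3. In controls Ppm1k changed by 0.06 ± 0.30. Dld, the dihydrolipoamide dehydrogenase shared with other 2-oxoacid complexes, changed by 0.85 ± 0.26 in mutants (edgeR adjusted p = 0.0413) and 0.68 ± 0.26 in controls (adjusted p = 0.138), and its mutant call was lost without mutant RT replicate 2 or 3 or mutant cold replicate 1 or 2. Hlcs, which attaches biotin to the carboxylases, fell by 1.12 ± 0.23 in mutants (edgeR adjusted p = 0.00610) and was called in all 6 leave-one-out fits. Between genotypes 0 of 5 were called at either temperature.

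Beyond Mccc, 2 of 5 genes of leucine breakdown and ketone use rose in the cold in mutants and 0 of 5 were called in controls. Oxct1, which activates acetoacetate, had 712, 602 and 508 CPM in mutant cold, against 252, 272 and 316 CPM in mutant RT, a log2 fold change of 1.12 ± 0.17 (edgeR adjusted p = 0.00119). Cold libraries were all well above the others, and in controls the change was 0.17 ± 0.17. The interaction for Oxct1 was 0.95 ± 0.24 and did not pass (edgeR adjusted p = 0.128). Bdh1, which interconverts the ketone bodies, rose by 5.06 ± 0.90 in mutants (edgeR adjusted p = 0.00440), with 615, 148 and 462 counts in mutant cold against 6, 4 and 26 counts in mutant RT. In controls its change was 2.77 ± 0.77 and did not pass (adjusted p = 0.0623).

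In the valine and isoleucine steps, 2 of 12 genes rose and 1 fell in the cold in mutants, and 1 of 12 rose in controls. Ehhadh, the peroxisomal bifunctional enzyme, rose by 1.59 ± 0.34 in mutants (edgeR adjusted p = 0.00819) and was called in all 6 leave-one-out fits. Hadha, a subunit of the mitochondrial trifunctional protein, rose by 0.83 ± 0.20 in mutants (adjusted p = 0.0155) and 0.80 ± 0.20 in controls (adjusted p = 0.0370), and Acadsb, the short/branched-chain acyl-CoA dehydrogenase, fell by 0.43 ± 0.11 in mutants (adjusted p = 0.0191). The mutant calls of Hadha and Acadsb were each lost without mutant RT replicate 2 or 3 or mutant cold replicate 1 or 2, and the control call of Hadha without any 1 of the 6 control libraries. Between genotypes Acaa2, a mitochondrial thiolase, was lower in mutants at room temperature by -1.08 ± 0.25 (edgeR adjusted p = 0.0237; 1 of 12 called), a call lost without mutant RT replicate 2 or 3 or control RT replicate 2 or 3. In the cold 0 of 12 were called between genotypes.

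The propionyl-CoA list holds enzymes that turn propionyl-CoA into succinyl-CoA and genes that handle their cobalamin cofactor. Of its 8 measured genes, 4 rose in the cold in mutants (17.4% of all genes were called) and 3 in controls (6.62% of all genes), and 0 fell. Mcee, the methylmalonyl-CoA epimerase, had 208, 209 and 92.9 CPM in mutant cold, against 52.7, 38.5 and 32.9 CPM in mutant RT. In controls it had 170, 139 and 129 CPM in the cold, against 55.3, 61.0 and 81.0 CPM at room temperature. The groups did not overlap in either genotype, with log2 fold changes of 2.04 ± 0.30 in mutants (edgeR adjusted p = 0.000930) and 1.15 ± 0.29 in controls (adjusted p = 0.0369). Pcca, the biotin-carrying subunit of propionyl-CoA carboxylase, rose by 0.96 ± 0.25 in mutants (adjusted p = 0.0223) and 1.08 ± 0.25 in controls (adjusted p = 0.0285). Mmaa, which serves the cobalamin cofactor of the mutase, rose by 0.91 ± 0.21 (adjusted p = 0.0119) in mutants and 0.83 ± 0.21 (adjusted p = 0.0359) in controls. Mmachc, which processes cobalamin, rose by 0.62 ± 0.12 in mutants (adjusted p = 0.00559). The control calls of Mcee, Pcca and Mmaa were each lost without any 1 of the 6 control libraries, and the mutant calls of Pcca and Mmaa without mutant RT replicate 2 or 3 or mutant cold replicate 1 or 2, while Mcee and Mmachc were called in mutants in all 6. Between genotypes 0 of 8 were called at either temperature.

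**Figure D4:**
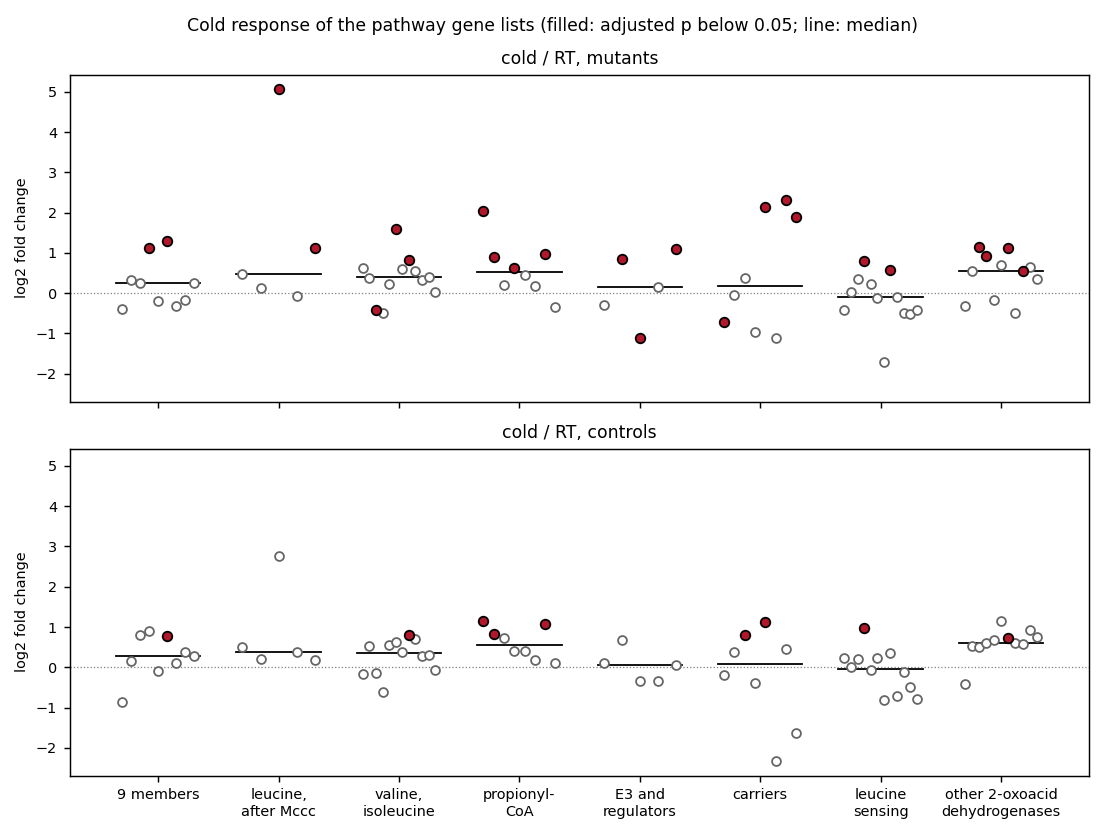
Log2 fold change of cold over room temperature (y axis) in mutants (upper panel) and controls (lower panel), 1 point per gene, for the 9 members and 7 lists of related genes, with filled points for adjusted p below 0.05 and a line at each list's median. In the propionyl-CoA list the median is 0.53 in mutants and 0.56 in controls, and in the leucine sensing list it is -0.10 in mutants and -0.03 in controls.

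Among carriers of branched-chain and large neutral amino acids, 8 of 9 genes were tested, and in the cold 3 rose and 1 fell in mutants while 2 rose in controls. Slc43a2, a large neutral amino acid carrier, had 108, 106 and 149 CPM in mutant cold, against 23.6, 26.3 and 32.3 CPM in mutant RT. In controls it had 127, 152 and 120 CPM in the cold, against 45.4, 93.2 and 44.0 CPM at room temperature. It rose by 2.14 ± 0.28 in mutants (edgeR adjusted p = 0.000502) and 1.13 ± 0.27 in controls (adjusted p = 0.0299), and at room temperature it was lower in mutants by -1.15 ± 0.27 (adjusted p = 0.0265). The control call was kept only without control RT replicate 2, and the room temperature call only without control RT replicate 1 or 3. Slc7a5, the light chain of the main leucine exchanger, rose in mutants by 2.32 ± 0.60 (adjusted p = 0.0199), with 3.97, 2.46 and 9.71 CPM in mutant cold against 1.63, 0.649 and 0.940 CPM in mutant RT, and the call was lost without mutant RT replicate 2 or 3 or mutant cold replicate 3. Slc7a8, another exchanger light chain, rose in mutants by 1.89 ± 0.45 (adjusted p = 0.0150), a call lost without mutant RT replicate 1. The heavy chain Slc3a2 rose in controls by 0.81 ± 0.18 (adjusted p = 0.0248), a call kept only without control cold replicate 3.

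Slc16a10, an aromatic amino acid carrier, fell by 0.71 ± 0.10 in the cold in mutants (edgeR adjusted p = 0.000827). At room temperature it was higher in mutants, with 62.5, 68.1 and 68.5 CPM in mutant RT against 37.8, 36.4 and 32.8 CPM in control RT, a log2 fold change of 0.90 ± 0.10 (adjusted p = 0.00103). The groups did not overlap, and both calls held in all 6 leave-one-out fits. Slc25a44, the mitochondrial branched-chain amino acid carrier of brown fat, was called nowhere: it changed in the cold by -0.04 ± 0.19 in mutants and 0.37 ± 0.19 in controls, and was 0.50 ± 0.19 higher on the log2 scale in mutants at room temperature (edgeR adjusted p = 0.145).

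Of 12 tested genes of leucine sensing and mTORC1, Mtor, the kinase itself, rose in the cold in mutants by 0.80 ± 0.14 (edgeR adjusted p = 0.00274) and in controls by 0.98 ± 0.14 (adjusted p = 0.00319). It was called in all 6 leave-one-out fits of each comparison. Rragc, a Rag GTPase, rose by 0.57 ± 0.11 in mutants (adjusted p = 0.00376), and the other tested genes of the list were not called in the cold comparisons. Rragb, another Rag GTPase, was lower in mutants in the cold by -2.62 ± 0.56 (adjusted p = 0.0494), with 2, 16 and 12 counts in mutant cold against 61, 70 and 38 in control cold, and was called only without mutant cold replicate 2 among the leave-one-out fits. Of 11 genes of the related pyruvate and 2-oxoglutarate dehydrogenases and their kinases, 4 rose in the cold in mutants and 1 in controls. In mutants these were Dlst (1.14 ± 0.18), the transacylase of the 2-oxoglutarate complex, Pdhx (1.12 ± 0.19), Ogdh (0.93 ± 0.22) and Pdk2 (0.56 ± 0.16), and Pdhx was also called in controls (0.73 ± 0.19, adjusted p = 0.0395). Calls of Dlst and Pdhx in mutants held in all 6 leave-one-out fits, while Pdk2 in mutants and Pdhx in controls were lost in 5 of 6 (Pdk2 kept only without mutant cold replicate 3, Pdhx only without control RT replicate 1) and Ogdh in 3, those without mutant RT replicate 3 or mutant cold replicate 1 or 2. Dlst was lower in mutants at room temperature by -0.79 ± 0.18 (edgeR adjusted p = 0.0204), a call kept only without control RT replicate 1.

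Fitted without the muscle-rich libraries, the mutants' cold calls of Oxct1, Bdh1, Ehhadh, Mcee, Slc43a2, Slc16a10, Mtor, Rragc, Pdhx and Dlst held, as did the room temperature genotype call of Slc43a2. The other calls of these lists, including every call in controls, were lost in that fit. In fits of only the groups compared, the mutants' cold calls of Acadsb, Hadha, Pcca, Mmaa, Dld, Ppm1k and Pdk2, the control and genotype calls of Slc43a2 and that of Rragb were lost. The control calls of Hadha and Pdhx were lost without a filter on low counts, and Rragb with RLE size factors or the replicate block.

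Where a list had no call between genotypes, its most abundant genes had these values. In the cold, mutant over control was -0.45 ± 0.33 for Acat1, the mitochondrial acetoacetyl-CoA thiolase, and 0.72 ± 0.17 for Oxct1 (edgeR adjusted p = 0.0720), with -0.42 ± 0.33 and -0.23 ± 0.17 at room temperature. Pcca and its partner Pccb differed by -0.37 ± 0.25 and -0.67 ± 0.25 in the cold and by -0.25 ± 0.25 and -0.20 ± 0.25 at room temperature. Dld and the transcription factor Klf15 differed by -0.25 ± 0.26 and 0.24 ± 0.25 in the cold and by -0.43 ± 0.26 and -0.26 ± 0.25 at room temperature. Hadha and its partner Hadhb differed in the cold by -0.34 ± 0.20 and -0.56 ± 0.31, and Slc25a44 and Slc3a2 by 0.09 ± 0.19 and 0.13 ± 0.18. Mtor and Rragc differed at room temperature by -0.01 ± 0.14 and 0.01 ± 0.11, and Ogdh in the cold by -0.36 ± 0.22. None of these passed (edgeR). Between genotypes 0 of 5 leucine genes were called at either temperature, 0 of 8 carriers and 0 of 11 other 2-oxoacid dehydrogenase genes in the cold, and 0 of 12 leucine sensing genes at room temperature.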

How the data were processed

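The authors deposited raw counts per gene with 1 column for each library. STAR, featureCounts and the mouse build mm9 are named in the submitters' processing notes. No version, annotation or strand setting was stated in what was used here, nor how multiply mapped reads were counted, so overlapping or antisense genes cannot be told apart.

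The deposited counts went into edgeR 4.0.16 (R 4.3.3). Genes were kept by filterByExpr with a minimum count of 10 and a minimum total of 15. A quasi-likelihood F-test with TMM scaling and robust dispersions was fitted to the 12 libraries together, with a coefficient for each of the 4 groups. Mutants were set against controls and cold against room temperature, each within the 2 levels of the other factor, and the interaction made 5 comparisons. P-values were two-sided, with Benjamini-Hochberg adjustment over 15265 genes, and a gene was called below 0.05. SE and 95% intervals follow from the F statistic. CPM used TMM-scaled totals of tested genes. Levels per kilobase used the principal coding transcript of each gene in GENCODE M21, which is on another build than the files. Reads carry no molecular identifiers and may repeat a molecule, so errors of counts cover counting only. The steps were tested on simulated counts. Replicates of a group differed by 38.2 to 234 in chi-square per degree of freedom, far more than sampling noise.

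All 9 members are named whatever their test. Of the other lists, genes called in a contrast are named, up to 4 by smallest p, or the 2 most abundant where none is called. Members and lists were chosen with earlier results of these data known.

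Replicate numbers are shared between groups, and no label ties a number to a litter or day. Correlations of same-numbered deviations were 0.149, 0.733 and 0.494 between genotypes at room temperature, -0.0116, 0.214 and 0.499 in the cold, 0.0613, 0.159 and 0.584 between temperatures in mutants and 0.134, 0.657 and 0.471 in controls. All 3 passed 0.1 between genotypes at room temperature and between temperatures in controls. The fit described above has no block for any comparison, and the ratio tests are unpaired. A fit with the number as a block was run as an alternative.

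Each result was recomputed with RLE size factors, with DESeq2 1.42.0, with limma-voom and quality weights (limma 3.58.1), with every gene of at least 1 count, with only the groups compared, with a replicate block, without each library in turn, and without the 4 libraries richest in muscle transcripts.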

Additional observations from a re-analysis of the deposited data

Results flagged for a closer look

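Slc7a8, a light chain of a neutral amino acid exchanger, had 17.7, 10.7 and 35.5 CPM in mutant cold, 5.75, 5.23 and 5.64 CPM in control cold, 4.17, 6.81 and 6.33 CPM in mutant RT, and 8.45, 25.1 and 18.0 CPM in control RT. The effect of the cold and that of genotype each had opposite directions without overlap. Mutant against control was -1.57 ± 0.45 on the log2 scale at room temperature (edgeR adjusted p = 0.0649) and 1.94 ± 0.45 in the cold (adjusted p = 0.0706). Cold against room temperature was 1.89 ± 0.45 in mutants (adjusted p = 0.0150) and -1.63 ± 0.45 in controls (adjusted p = 0.0541). The interaction was 3.52 ± 0.64 (edgeR adjusted p = 0.0454), which lost its call in 9 of 12 leave-one-out fits (adjusted p 0.0102 to 0.158) and was called without control RT replicate 1 or mutant cold replicate 2 or 3. The call was also lost without a filter on low counts, with the replicate block and without the 4 muscle-rich libraries.

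Pdha1, the alpha subunit of the pyruvate decarboxylase, was narrowly higher in every mutant than in every control library at room temperature (log2 fold change 0.20 ± 0.21). It had 1915, 2323 and 1912 CPM in mutant RT, against 1868, 1885 and 1608 CPM in control RT. In the cold it was lower in every mutant library (-0.65 ± 0.21), with 1940, 2319 and 1252 CPM against 2643, 3038 and 2941 CPM. Neither difference was called (edgeR), and groups did not overlap for 24.8% of all genes at each temperature. The interaction, -0.84 ± 0.30, did not pass over all genes (edgeR adjusted p = 0.266).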

How the results depend on the processing

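The rise of Dbt in the cold in mutants was called in all 13 alternatives, with log2 fold changes of 1.19 to 1.45. In controls Dbt was called in 10 of 13, and Bckdhb in mutants in 8 of 13. Leaving out 1 library gave 0 to 1 members called in controls and 1 to 2 in mutants between temperatures. In those fits 2.01% to 6.26% of all genes were called in controls and 9.43% to 23.4% in mutants. DESeq2 called 1 member between genotypes at room temperature and 2 in controls' cold comparison, against 11.3% and 13.3% of the genes with an adjusted p. Limma-voom called 3 between genotypes at room temperature, 1 between genotypes in the cold, 4 in mutants' and 4 in controls' cold comparison, and 1 in the interaction. Over all genes limma-voom called 19%, 7.7%, 33.5%, 22.5% and 7.92% in the same order. Fits of only the groups compared called 1 in mutants and 3 in controls, against 11.2% and 8.04% of all genes. The fit without the 4 muscle-rich libraries leaves 1 control library at room temperature, whose spread is assumed like that of the other groups. The cause of these shifts was not tested.

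Over all genes the calls by edgeR, DESeq2, limma-voom and without the muscle-rich libraries were 952, 1651, 2899 and 129 between genotypes at room temperature, 171, 717, 1175 and 18 between genotypes in the cold, 2663, 3380, 5118 and 1218 in mutants' cold comparison, 1010, 1951, 3435 and 13 in controls', and 73, 436, 1209 and 26 for the interaction.

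With the replicate block, 2 members were called in mutants' cold comparison and 1 in controls', as without it, and 0 elsewhere. Over all genes the block gave 873, 125, 2671, 1014 and 34 calls in the same order of comparisons. Under the block the signs of Bckdhb (-0.021) and Mccc1 (-0.017) between genotypes in the cold turned. The block changed no other member's call.

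All values whose sign turned were uncalled. With limma-voom they were Mccc1 in mutants' cold comparison (0.0053) and the Mccc2 interaction (0.12). Without the muscle-rich libraries they were Bckdha (0.39) and Mccc2 (-0.023) between genotypes at room temperature, Bcat1 between temperatures in mutants (0.0044) and controls (0.22), and the interactions of Bcat1 (-0.22), Bcat2 (-0.38) and Mccc2 (0.15). Leaving out 1 library gave -0.30 to 0.034 for Bckdha between genotypes at room temperature, -0.40 to 0.31 for Bckdhb and -0.13 to 0.22 for Mccc1 in the cold, -0.10 to 0.60 for Bckdha and -0.33 to 0.038 for Mccc1 in mutants' cold comparison, and -0.038 to 0.29 for Bcat2 and -0.014 to 0.19 for Ivd in controls'. For the interaction it gave -0.13 to 1.06 for Bcat1, -0.22 to 0.49 for Bckdhb and -0.18 to 0.12 for Mccc2. Bcat1, with as few as 17 counts in a library, is the member whose values the depth limits most.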
